A study of Mustela putorius furo with 2 samples.

Results

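FGFR1, FGFR2 and FGFR3 encode receptor tyrosine kinases for fibroblast growth factors (FGFs), and their RNA is described here in single cells of the ferret cortex. The 3 genes were chosen by name and not by a rule on measured values, but with earlier results of these data known. They are 3 of the 21317 gene names with at least 1 UMI. A UMI, or unique molecular identifier, marks 1 captured RNA molecule. The tissue was dorsal cortex of ferret pups (Mustela putorius furo) of the genotype WT at postnatal day 3, dissociated with papain and captured on the 10x Genomics Chromium platform. The study holds 1 group in 2 replicates, with no treatment, second genotype or second age named in the labels. The cells fall into 2 libraries by their barcode suffix, called A and B here, and the labels do not tie a suffix to a replicate number. Nothing says that the replicates came from separate animals. The p-values measure only how class differences vary between these 2 libraries, pooled over the classes, and that variation may be technical. With a single group, every comparison below is between classes of cells.

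An FGF binds its receptor together with heparan sulfate, the receptor dimerises and phosphorylates the docking protein FRS2, and GRB2 and SOS proteins then activate RAS and the ERK kinase cascade. ETV transcription factors and the Sprouty, SPRED and DUSP feedback inhibitors are well known targets of that cascade. In the developing cortex FGF signalling is known for its part in keeping radial glia, the neural stem cells, in a progenitor state and in the development of astrocytes, and FGFR3 is widely used as a marker of radial glia and astrocytes.

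Library A held 9780 cells and library B 4993 after 14 cells were removed, with medians of 3603 and 3074 UMIs per cell. The 2 libraries shared 21 barcode sequences. FGFR1 had 1919 UMIs in library A and 842 in library B, FGFR2 had 3484 and 1595, and FGFR3 had 261 and 145. FGFR3 is therefore the receptor whose values carry the largest counting error. UMIs at the 3' end do not allow levels of different genes to be compared, so each receptor is compared only with itself across classes.

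Classes were gated on the UMIs of marker genes in each cell, with 18 gates, and the 521 cells that passed several gates and the 6102 that passed none were left out. HOPX, a marker of outer radial glia and astrocytes, defined a class with CLU and without G2/M transcripts (290 cells in library A and 155 in B) and a class with G2/M transcripts (226 and 153). Further glial classes were gated on LIFR with CITED1 or BBOX1 (58 and 26 cells), on CRYAB (18 and 11), on EGFR with OLIG1 (gliogenic progenitor-like, 132 and 70) and on PDGFRA with SOX10 (oligodendrocyte precursor-like, 52 and 19). EOMES, a marker of intermediate progenitors, defined a class with G2/M transcripts (470 and 204) and a class without them (809 and 364). Neurons were gated as newborn excitatory neuron-like (2068 and 1002), deep-layer excitatory neuron-like (77 and 38), and 3 inhibitory classes of medial-eminence (338 and 85), caudal-eminence (540 and 170) and MEIS2 type (100 and 49). Endothelial-like (80 and 226), mural and fibroblast-like (29 and 18) and microglia-like cells (118 and 127) completed the 16 classes described, since the erythroid-like and ependymal-like gates held under 10 cells in a library. A level is given as CPM, the UMIs of the gene after the UMIs of all cells of a class in a library were scaled to a total of 1000000.

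FGFR2 was highest in the HOPX and CLU glia, and the CRYAB, G2/M HOPX and LIFR glia followed in the order of mean levels. In the HOPX and CLU glia its level was 271 CPM in both libraries, from 463 UMIs in library A and 228 in library B. It was 193 CPM in library A and 176 in B in the HOPX glia with G2/M transcripts, 214 and 195 in the CRYAB glia, and 187 and 103 in the LIFR glia. The HOPX and CLU glia lay above every other class in both libraries.

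Among the remaining classes, FGFR2 stood at 133 CPM in library A and 140 in B in the mural and fibroblast-like cells and at 125 and 118 in the deep-layer neuron-like cells. With each gate bound raised by 1 UMI these means, 137 and 122 CPM, became 89.0 and 72.7. The raised gates left only 22 mural and fibroblast-like cells in library A and 13 in B, and 22 and 6 deep-layer cells. The EOMES progenitors with G2/M transcripts had 67.0 and 77.7 CPM, and the EOMES cells without them 26.9 and 21.5, so the libraries of these 2 EOMES classes did not overlap. That pair was not a planned comparison and carries no test. The gliogenic progenitor-like cells had 67.3 CPM in library A and 28.0 in B, and the oligodendrocyte precursor-like cells, from 4 and 2 UMIs, had 14.2 and 19.2, the lowest mean of the 16 classes.

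The other neuronal classes and the endothelial-like and microglia-like cells had mean FGFR2 levels below that of the EOMES progenitors with G2/M transcripts. The medial-eminence interneuron-like cells had 58.0 and 59.6 CPM, the caudal-eminence ones 35.8 and 65.9, and the MEIS2 ones 34.2 and 28.2. Newborn neuron-like cells had 36.6 and 42.5, endothelial-like cells 48.3 and 32.8, and microglia-like cells 30.7 and 41.0. In the order of mean levels, 8 of the 15 neighbouring pairs of classes had overlapping libraries, so the order among these lower classes is not resolved by 2 libraries.

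FGFR1 was also highest on average in the HOPX and CLU glia, where its mean was 1.97 times that of the median class, beside 4.95 times for FGFR2 and 7.72 times for FGFR3. The HOPX and CLU glia had 138 CPM in library A and 96.3 in B, a mean of 117, and the CRYAB glia 102 and 108. The HOPX glia with G2/M transcripts had 78.9 and 82.9, the LIFR glia 93.5 and 41.2, and the gliogenic progenitor-like cells 76.1 and 52.8. The 2 libraries of the LIFR glia were far apart, and the HOPX and CLU glia overlapped with the CRYAB glia.

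Outside the neural lineage, FGFR1 stood at 85.1 CPM in library A and 68.4 in B in the microglia-like cells, at 78.4 and 58.5 in the mural and fibroblast-like cells and at 64.4 and 45.1 in the endothelial-like cells. It was 49.9 and 38.4 in the oligodendrocyte precursor-like cells and 47.0 and 101 in the deep-layer neuron-like cells, whose libraries differed by more than those of most classes. The lowest levels were in both EOMES classes and in the neurons other than the deep-layer class. FGFR1 was 20.4 and 23.0 CPM in EOMES cells without G2/M transcripts, 26.1 and 21.6 in those with them, 31.7 and 28.7 in newborn neuron-like cells, and between 17.9 and 28.2 in the 3 inhibitory classes. Of the 15 neighbouring pairs in the order of FGFR1 levels, 11 had overlapping libraries.

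FGFR3 was sparse, with a UMI in 363 of the 14773 cells, and its highest mean again lay in the HOPX and CLU glia. It had 27.5 CPM in library A and 32.1 in B there, from 47 and 27 UMIs. The HOPX glia with G2/M transcripts had 20 and 10.6, the gliogenic progenitor-like cells 14.6 and 12.4, and the LIFR glia 11.3 and 34.3 from 4 and 5 UMIs. In the LIFR glia the Poisson intervals of 3.09 to 29.0 CPM in library A and 11.2 to 80.1 in library B overlap, and the class overlaps with the HOPX and CLU glia.

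The other classes had few FGFR3 molecules. The EOMES progenitors with G2/M transcripts had 3.69 and 5.61 CPM, the EOMES cells without them 3.21 and 2.30, and the newborn neuron-like cells 0.854 and 0.322, from 6 and 1 UMIs. No UMI was found in the CRYAB glia, where counting error alone allows up to 37.6 CPM in library A and 80.0 in library B, so FGFR3 was not detectable there at this depth rather than absent. The mural and fibroblast-like cells had 7.84 and 35.1 CPM from 1 and 3 UMIs, and the medial-eminence interneuron-like cells 0 and 14.9 from 0 and 5 UMIs. For FGFR3, 13 of the 15 neighbouring pairs of classes had overlapping libraries.

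**Figure D1:**
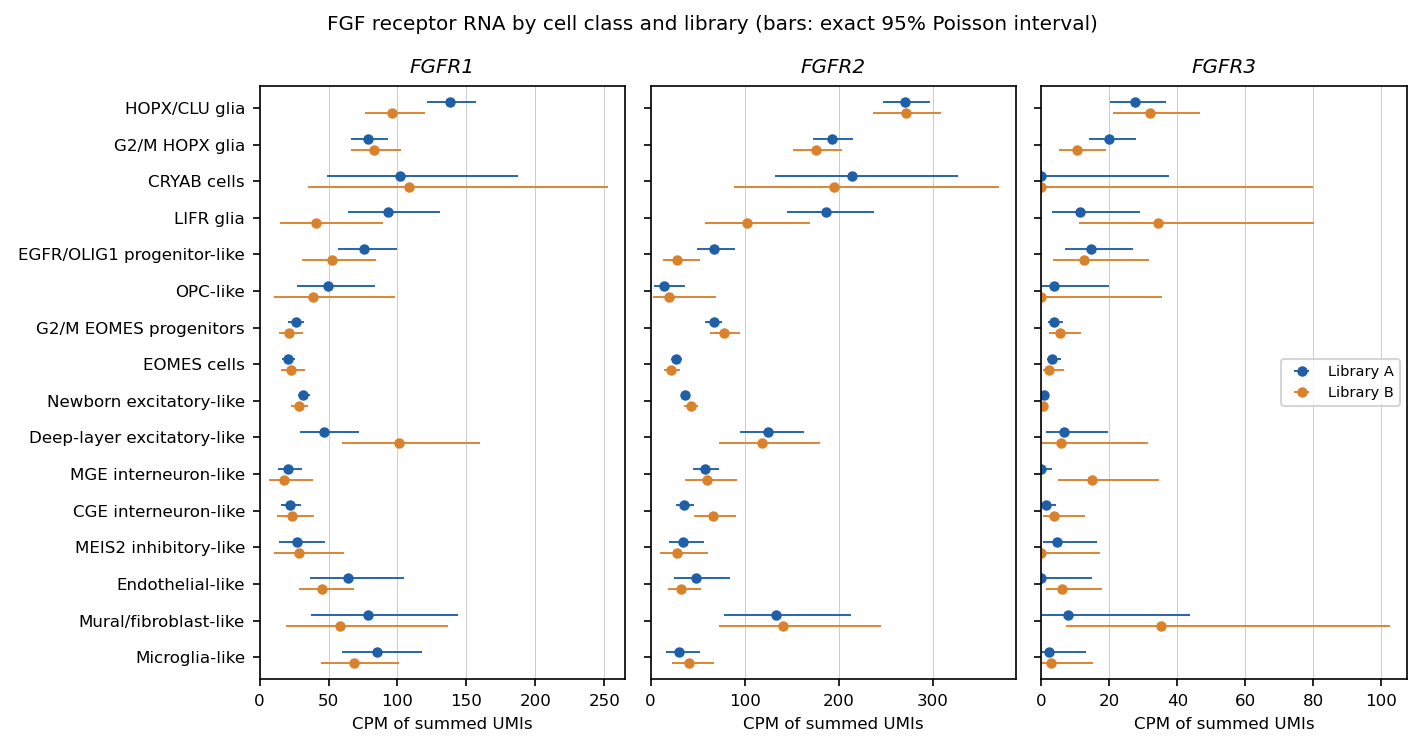
CPM of FGFR1, FGFR2 and FGFR3 (horizontal axes, each with its own scale from 0) in the 16 classes (vertical axis) for library A and library B. Points are the summed UMIs of a class in 1 library and bars are exact 95% Poisson intervals, which cover counting error only. The HOPX and CLU glia, at 271 CPM of FGFR2 in both libraries, lie to the right of all other classes for that receptor, and the FGFR3 intervals are wide in every class with few UMIs.

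The share of cells with an FGFR2 UMI was also highest in the HOPX and CLU glia. FGFR2 was detected in 73.8% of HOPX and CLU glia in library A (214 of 290 cells) and in 67.1% in library B (104 of 155). The EOMES progenitors with G2/M transcripts had 31.3% and 30.9%, and the EOMES cells without them 8.41% and 5.77%. Median depth differed between these classes, at 5674 and 5132 UMIs per cell in the HOPX and CLU glia, 6650 and 5809 in the EOMES progenitors with G2/M transcripts and 3866 and 3348 in the EOMES cells without them.

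Shares were therefore also computed as the share expected if each cell held 1500 UMIs. For FGFR2 this gave 32.3% and 32.2% in the HOPX and CLU glia, 24.3% and 21.3% in the HOPX glia with G2/M transcripts, 8.88% and 9.95% in the EOMES progenitors with G2/M transcripts, and 3.32% and 2.60% in the EOMES cells without them. Microglia-like cells, a class of another lineage with median depths of 2560 and 2044 UMIs, had 5.0% and 8.35% at that depth, and 9.32% and 11.0% over all UMIs. In droplet data, free RNA gives UMIs to cells that do not express a gene, and in both libraries the FGFR2 shares of 4 classes lay below those of the microglia-like cells. These were the EOMES cells without G2/M transcripts, the oligodendrocyte precursor-like cells (1.17% and 1.79%), the MEIS2 inhibitory neuron-like cells (4.33% and 3.20%) and the caudal-eminence interneuron-like cells (4.57% and 5.97%). Shares this low are not read as expression or as its absence. By CPM the caudal-eminence class lay above the microglia-like cells in both libraries, at 35.8 and 65.9 against 30.7 and 41.0. The MEIS2 class did so only in library A, at 34.2 CPM, and the EOMES and oligodendrocyte precursor-like cells in neither. Whether the microglia-like cells held only free RNA was not tested, and the level of free RNA itself was not measured.

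For FGFR1 the microglia-like cells had a share of 11.3% and 8.29% at 1500 UMIs. This was higher than that of the newborn neuron-like cells, at 4.65% and 4.37%, so no class served as a blank. The HOPX and CLU glia had 18.0% and 13.5% at that depth, and 51.0% and 38.7% over all UMIs. For FGFR3 the HOPX and CLU glia had 4.34% and 4.82%, against 0.652% and 0.556% in the microglia-like cells. Over all UMIs those FGFR3 shares were 13.4% and 14.2% in the HOPX and CLU glia and 0.848% and 0.787% in the microglia-like cells, 1 cell in each library.

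**Figure D2:**
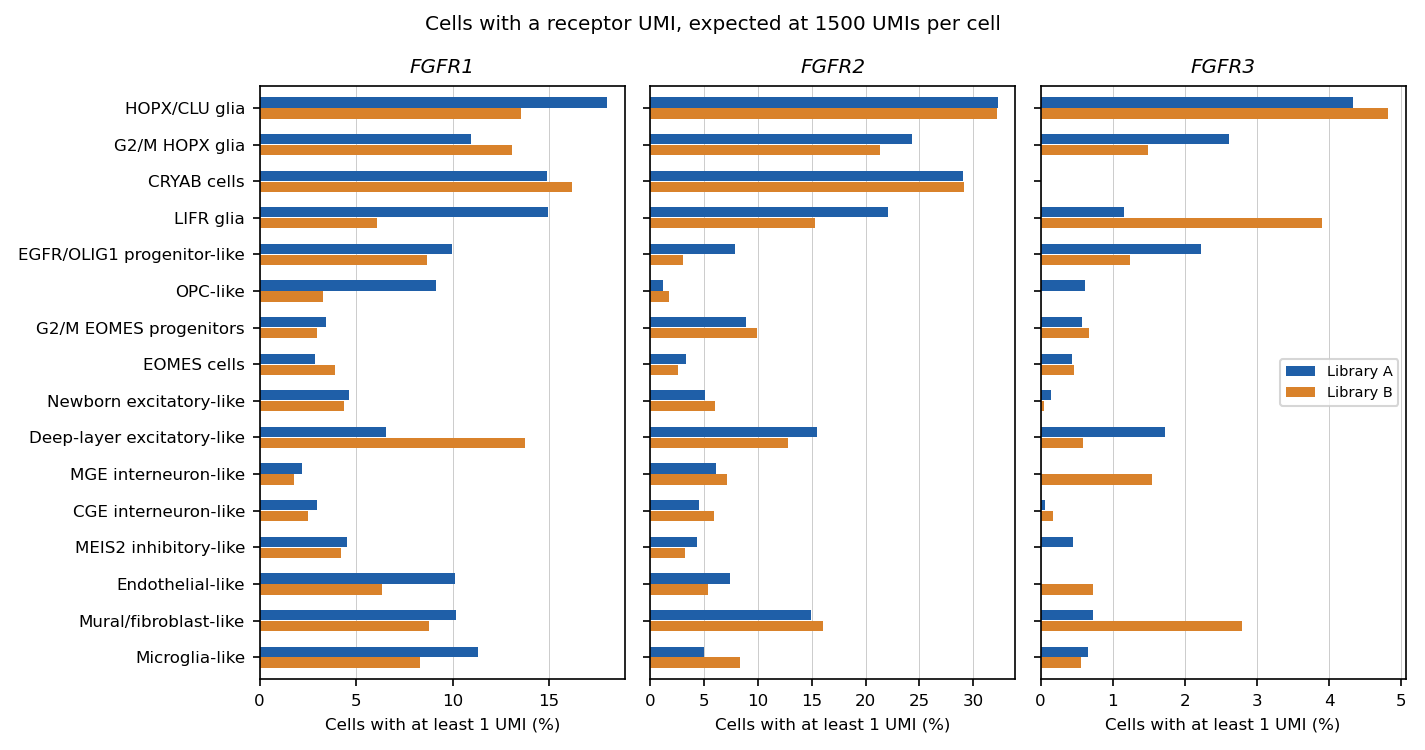
Share of cells with a UMI expected at 1500 UMIs per cell, in percent (horizontal axes), for each receptor in the 16 classes (vertical axis), for library A and library B. The HOPX and CLU glia reach 32.3% and 32.2% for FGFR2, and the EOMES cells without G2/M transcripts lie below the microglia-like cells for that receptor.

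Over all UMIs, many HOPX cells held UMIs of more than 1 receptor. In the HOPX and CLU glia, 89.3% of cells in library A and 79.4% in library B held a UMI of at least 1 of the receptors, and 43.8% and 37.4% held UMIs of at least 2. All 3 receptors were found in 15 cells of library A and 5 of library B. In the HOPX glia with G2/M transcripts, 82.3% and 66.7% held at least 1 receptor and 35.4% and 32.0% at least 2, while in the newborn neuron-like cells these shares were 19.4% and 18.5% for at least 1 and 1.31% and 0.898% for at least 2. These shares rise with depth, and whether cells carry receptors together more often than their depth alone gives was not tested.

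The split of receptor UMIs between FGFR1, FGFR2 and FGFR3 differed between glial classes. Of the UMIs of the 3 receptors together, FGFR1 made up 31.6% in library A and 24.1% in library B in the HOPX and CLU glia, and 48.1% and 56.7% in the gliogenic progenitor-like cells, while FGFR2 made up 62.1% and 67.9% in the former and 42.6% and 30.0% in the latter. The exact binomial intervals of the FGFR1 share were 28.3% to 35.1% and 19.6% to 29.1% in the HOPX and CLU glia and 38.4% to 58.0% and 37.4% to 74.5% in the gliogenic progenitor-like cells. The oligodendrocyte precursor-like cells, at 73.7% and 66.7% of only 19 and 6 receptor UMIs, and the microglia-like cells, at 72.0% and 61.0%, had the highest FGFR1 shares. A split depends on how reads were captured at each gene's 3' end, so its change across classes is read here and not its absolute value.

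**Figure D3:**
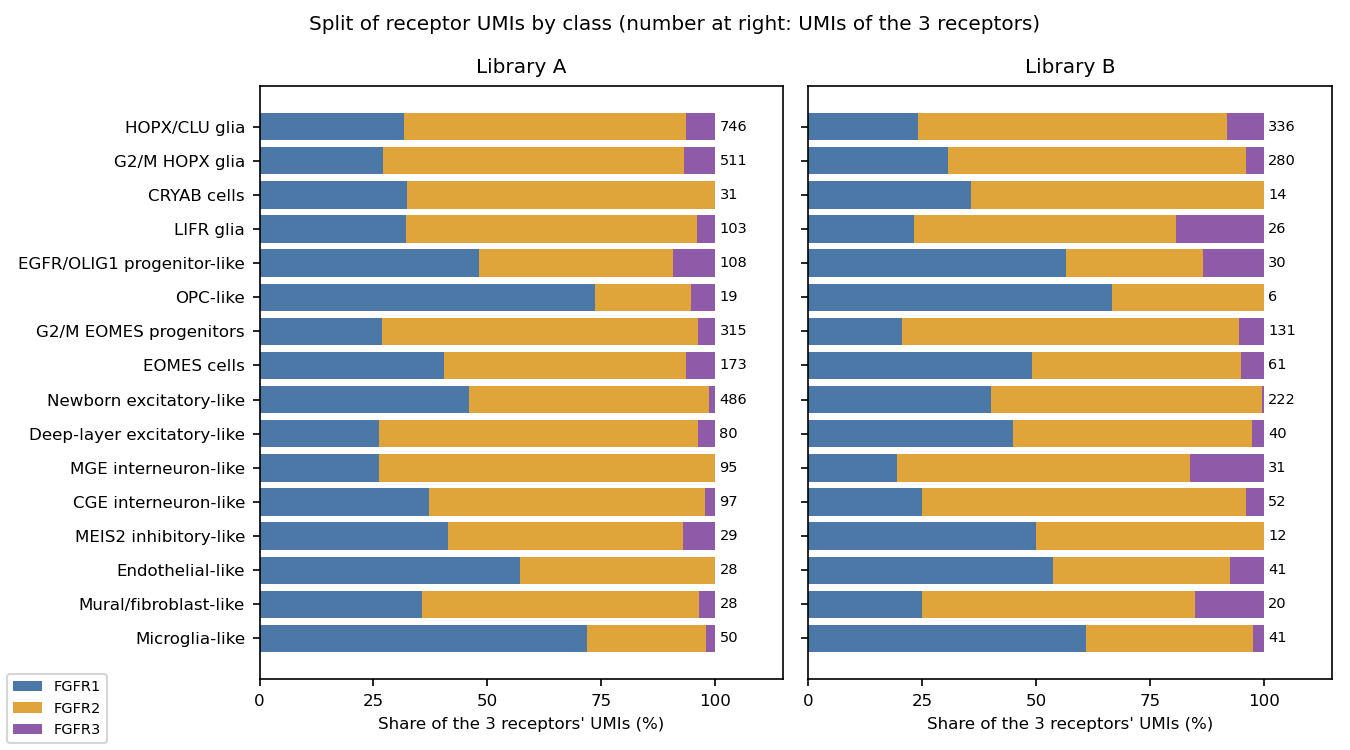
Percent of the UMIs of the 3 receptors (horizontal axis) that came from FGFR1, FGFR2 and FGFR3, for each class (vertical axis) and library. FGFR1 takes 31.6% and 24.1% in the HOPX and CLU glia and 48.1% and 56.7% in the gliogenic progenitor-like cells.

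Whether the receptors differ between glia and neuronal progenitors was tested between the HOPX and CLU glia and the EOMES cells without G2/M transcripts. All 3 receptors were higher in the glia, in a comparison in which 43.0% of all genes tested were called, 21.9% higher and 21.0% lower. FGFR2 was at 271 and 271 CPM against 26.9 and 21.5, a log2 fold change of 3.39 (SE 0.19, adjusted p = 4.49e-15). FGFR3 was higher by 3.23 (SE 0.61, adjusted p = 6.95e-05) and FGFR1 by 2.49 (SE 0.19, adjusted p = 8.15e-12) in the quasi-likelihood test of edgeR with p-values adjusted after Benjamini and Hochberg. Both libraries showed each difference, with log2 ratios within library A and within library B of 3.33 and 3.66 for FGFR2, 3.10 and 3.80 for FGFR3 and 2.76 and 2.07 for FGFR1.

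The same question was asked among cells with G2/M transcripts, where 26.4% of genes tested were called, 13.7% higher in the HOPX glia and 12.7% lower. FGFR1 was 78.9 and 82.9 CPM in the HOPX glia against 26.1 and 21.6 in the EOMES progenitors, a log2 fold change of 1.62 (SE 0.20, adjusted p = 3.42e-07). FGFR2 was 193 and 176 CPM against 67.0 and 77.7, a log2 fold change of 1.29 (SE 0.17, adjusted p = 5.83e-07). FGFR3 was 20 and 10.6 against 3.69 and 5.61, a log2 fold change of 1.75 (SE 0.61, adjusted p = 0.0334), and this call was lost with DESeq2 (adjusted p = 0.164). The HOPX glia lay above the EOMES progenitors in both libraries for each receptor, with the FGFR3 log2 ratio at 2.44 within library A and 0.92 within library B. In library B the endothelial marker list summed to 839 CPM in the HOPX glia with G2/M transcripts against 27.4 in library A, and its part in the library B values was not tested. Whether the differences are smaller in cells with G2/M transcripts than in those without was not tested.

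Among the glia, the HOPX cells with G2/M transcripts had less FGFR1 and FGFR2 than the HOPX and CLU glia. In this comparison 19.2% of genes tested were called, 9.02% higher and 10.2% lower. FGFR2 was lower by a log2 fold change of -0.66 (SE 0.15, adjusted p = 0.00166) and FGFR1 by -0.70 (SE 0.17, adjusted p = 0.00284), while FGFR3 had -0.98 (SE 0.52, adjusted p = 0.205). The FGFR1 difference was -0.81 within library A and -0.22 within library B, and the FGFR2 difference was -0.49 and -0.62. The FGFR2 call was lost with DESeq2 (adjusted p = 0.0684), and the FGFR1 call in cells thinned to 1500 UMIs (-0.55, adjusted p = 0.183). CLU was required in only 1 of these gates, and both calls were kept when it was not required.

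The gliogenic progenitor-like cells, gated on EGFR and OLIG1, had less FGFR2 than the HOPX and CLU glia. FGFR2 was 67.3 and 28.0 CPM against 271 and 271, a log2 fold change of -2.39 (SE 0.23, adjusted p = 4.15e-09), in a comparison in which 22.7% of genes tested were called, 10.3% higher and 12.4% lower. FGFR1 was 76.1 and 52.8 CPM against 138 and 96.3, a log2 fold change of -0.91 (SE 0.22, adjusted p = 0.00242). FGFR3 was 14.6 and 12.4 CPM against 27.5 and 32.1, a log2 fold change of -1.14 (SE 0.64, adjusted p = 0.225). The ranges of the 2 classes did not overlap for any of the 3 receptors, and the FGFR2 log2 ratio was -2.01 within library A and -3.28 within library B. In a fit of these 2 classes alone the FGFR3 difference was -1.08 and passed the threshold (adjusted p = 0.0384).

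The LIFR glia, gated on LIFR with CITED1 or BBOX1, had less FGFR2 than the HOPX and CLU glia, with a log2 fold change of -0.89 (SE 0.22, adjusted p = 0.0156). In this comparison 3.82% of genes tested were called, 2.03% higher and 1.79% lower. FGFR1 had -0.79 (SE 0.27, adjusted p = 0.109) and FGFR3 -0.77 (SE 0.72, adjusted p = 0.719), and neither passed the threshold. The FGFR2 difference was -0.54 within library A and -1.40 within library B, and its call was lost with DESeq2 (adjusted p = 0.0693) and after thinning (adjusted p = 0.0715). With cells that passed several gates kept, FGFR1 had -1.10 and passed (adjusted p = 0.00209). The comparisons of these 3 classes share the HOPX and CLU glia as their second class, so their values are not independent of each other. The CRYAB glia, with 18 and 11 cells, were too few for the test.

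The oligodendrocyte precursor-like cells were compared with the gliogenic progenitor-like cells in a fit with the minimum number of cells per class and library lowered from 20 to 15, a choice made after the cell counts were seen. FGFR2 was 14.2 and 19.2 CPM against 67.3 and 28.0, a log2 fold change of -1.87 (SE 0.61, adjusted p = 0.0475), where 9.40% of genes tested were called, 4.96% higher and 4.44% lower. In library B alone the difference was -0.54, from 2 UMIs in the precursor-like cells, so the size of this change rests on library A. FGFR1 had -0.63 (SE 0.40, adjusted p = 0.401) and FGFR3 -2.43 (SE 1.49, adjusted p = 0.389).

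Among excitatory neurons, FGFR2 and FGFR1 were higher in the deep-layer neuron-like than in the newborn neuron-like cells, and cells with glial transcripts carried most of these UMIs. FGFR2 was 125 and 118 CPM against 36.6 and 42.5, a log2 fold change of 1.48 (SE 0.26, adjusted p = 7.77e-05), where 22.7% of genes tested were called, 12.7% higher and 9.99% lower. FGFR1 was 47.0 and 101 CPM against 31.7 and 28.7, a log2 fold change of 0.85 (SE 0.30, adjusted p = 0.0369), with 0.57 within library A and 1.82 within library B. FGFR3 had 2.90 (SE 1.27, adjusted p = 0.105). The astrocyte marker list, with 8 of 8 genes detected, summed to 1126 and 1052 CPM in the deep-layer class against 238 and 237 in the newborn class, and the radial glia list to 17719 and 22589 against 9550 and 10749. In library B, where FGFR1 was the higher, the endothelial list also summed to 529 CPM in the deep-layer class, against 67.2 in library A and 29.3 and 81.5 in the newborn class. The mural list summed to 158 CPM there, against 38.1 in library A and 11.5 and 18.7 in the newborn class, and the part of either list in the FGFR1 value was not tested.

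When cells with a UMI of HOPX, CLU, AQP4 or TNC were left out, 36 of 77 deep-layer cells remained in library A and 14 of 38 in library B. FGFR2 was then 40.0 and 35.1 CPM in the deep-layer class, from 7 and 2 UMIs, beside 34.2 and 43.8 in the newborn class. FGFR1 was 5.71 and 35.1 CPM, from 1 and 2 UMIs, beside 32.0 and 28.4, and no FGFR3 UMI remained in the deep-layer class. The ranges of the 2 classes thus overlapped for FGFR1 and FGFR2, with too few cells left for the test. This exclusion was chosen after the data were seen. The FGFR1 call was also lost without cells with a doublet score above 0.2 (adjusted p = 0.124), without the filter on low counts (0.0597), in a fit of the 2 classes alone (0.0621) and after thinning (0.435). The FGFR2 call was lost after thinning (1.14, adjusted p = 0.074).

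Between the medial-eminence interneuron-like and the newborn excitatory neuron-like cells no receptor passed the threshold, in a comparison in which 19.5% of genes tested were called, 9.36% higher and 10.2% lower. FGFR1 had a log2 fold change of -0.76 (SE 0.29, adjusted p = 0.0687), FGFR2 0.46 (SE 0.24, adjusted p = 0.21) and FGFR3 2.14 (SE 1.13, adjusted p = 0.217). The unadjusted p of edgeR's test was 0.0148 for FGFR1, 0.065 for FGFR2 and 0.068 for FGFR3, so 1 of the 3 was under 0.05, as were 3297 of the 11436 genes tested. Without cells with HOPX, CLU, AQP4 or TNC, FGFR2 in the interneuron-like cells was 37.0 and 38.5 CPM, its difference turned to -0.12 (adjusted p = 0.848), that of FGFR3 to -0.03, and FGFR1 passed the threshold at -1.14 (adjusted p = 0.00676). FGFR1 also passed without cells with a doublet score above 0.2 (-1.10, adjusted p = 0.0154) and without the filter on low counts (adjusted p = 0.0491). FGFR2 passed with raised gates (0.63, adjusted p = 0.0407) and turned to -0.03 after thinning. This comparison shares the newborn class with the one of the deep-layer cells.

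In the vascular classes, FGFR2 was 133 and 140 CPM in the mural and fibroblast-like cells against 48.3 and 32.8 in the endothelial-like cells, a log2 fold change of 1.73 (SE 0.46, adjusted p = 0.0166), where 6.91% of genes tested were called, 3.11% higher and 3.81% lower. This fit, too, used the minimum of 15 cells. FGFR1 had 0.29 (SE 0.47, adjusted p = 0.809) and FGFR3 2.17 (SE 1.41, adjusted p = 0.416). The radial glia list summed to 19090 and 23755 CPM in the mural and fibroblast-like cells against 4905 and 7192 in the endothelial-like cells, and VIM, one of its genes, is also expressed by mural cells and fibroblasts. The astrocyte list summed to 902 and 1380 CPM against 298 and 412. The part of glial RNA in the FGFR2 value was not tested, as too few mural and fibroblast-like cells lacked HOPX, CLU, AQP4 and TNC. Of the endothelial-like cells, 22 in library A and 56 in library B lacked these 4 transcripts. Their FGFR2 level was 138 and 44.5 CPM, from 8 and 5 UMIs.

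**Figure D4:**
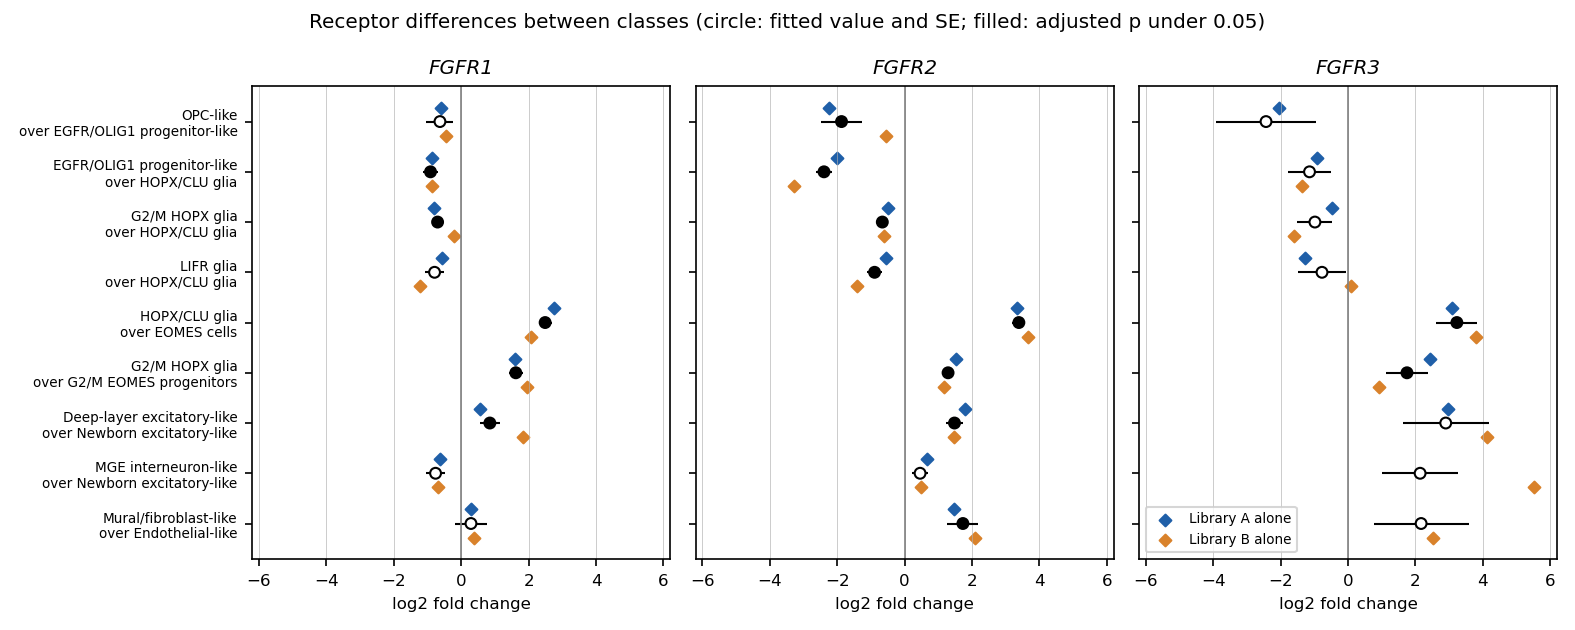
Log2 fold changes of the 3 receptors (horizontal axis, first class over second) in the 9 comparisons that were run (vertical axis). Circles are edgeR estimates with bars of 1 SE, filled where the adjusted p is under 0.05, and diamonds are the log2 ratios in library A alone and library B alone; a diamond is left out where a class had no UMI in that library. The HOPX and CLU glia against EOMES cells stand farthest to the right for FGFR2, at 3.39, and the gliogenic progenitor-like cells farthest to the left, at -2.39.

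Of the other genes of the pathway, the ligand list held 22 FGF genes, of which 18 had a UMI and 5 were abundant enough to test. FGF2, a secreted ligand of all these receptors, was 26.9 and 29.7 CPM in the HOPX and CLU glia against 3.51 and 0.767 in the EOMES cells without G2/M transcripts, a log2 fold change of 3.32 (SE 0.54, adjusted p = 6.93e-06). FGF2 was also 61.4 and 21.9 CPM in the microglia-like cells. The other 4 tested genes, FGF11, FGF12, FGF13 and FGF14, encode intracellular FGF homologous factors, which regulate sodium channels and are not classical receptor ligands. FGF13 was higher in the HOPX and CLU glia than in the EOMES cells (2.12, SE 0.16, adjusted p = 5.68e-12) and FGF14 lower (-2.48, SE 0.41, adjusted p = 8.65e-06). In all, 2 of the 5 rose and 1 fell, where 43.0% of all genes tested were called, with a median log2 fold change of -0.51 beside -0.04 over all genes tested.

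The list of other receptors and coreceptors held 15 genes, all with a UMI, and 10 were tested. In the HOPX and CLU glia against the EOMES cells 5 were higher and 3 lower, with a median of 0.62, where 21.9% of all genes tested were higher and 21.0% lower. SDC2, the heparan sulfate proteoglycan syndecan 2, was 82.5 and 80.8 CPM against 2.92 and 3.83, a log2 fold change of 4.59 (SE 0.34, adjusted p = 2.05e-12). ANOS1, which encodes the FGFR1-binding matrix protein anosmin 1, was higher by 4.21 (SE 0.25, adjusted p = 1.65e-14). L1CAM, a neuronal adhesion molecule, was lower at -3.59 (SE 0.23, adjusted p = 9.25e-14). FGFR4, the fourth receptor kinase of the family, had 9 UMIs in the whole matrix.

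In the gliogenic progenitor-like cells against the HOPX and CLU glia, ANOS1 (-2.30, SE 0.28, adjusted p = 3.22e-07) and SDC2 (-1.79, SE 0.33, adjusted p = 0.000105) were lower, and FLRT3, a membrane protein that binds FGF receptors, was higher (1.46, SE 0.37, adjusted p = 0.00377). Of the 10 coreceptor genes tested there, 1 was higher and 3 were lower, with a median of -0.46 beside -0.03 over all genes, of which 10.3% were higher and 12.4% lower. In the HOPX glia with G2/M transcripts against the HOPX and CLU glia, 5 of 10 were lower and none higher, where 10.2% of all genes tested were lower, with a median of -0.56 beside -0.06. There FLRT1, ANOS1 and FGFRL1, a receptor without a kinase domain, had -1.34, -1.19 and -1.08. In the LIFR glia ANOS1 was the only gene of the 4 lists that changed, at -1.43 (SE 0.31, adjusted p = 0.00377).

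Of the adaptor and ERK cascade list 20 of 22 genes were tested. In the HOPX and CLU glia against the EOMES cells 3 were higher and 4 lower, where 43.0% of all genes tested were called, with a median of 0.09. The docking protein GAB2 was lower (-2.36, SE 0.30, adjusted p = 1.83e-07), and its relative GAB1 (1.17, SE 0.19, adjusted p = 6.71e-06) and the ERK-activating kinase MAP2K1 (1.30, SE 0.27, adjusted p = 0.000169) were higher. In the gliogenic progenitor-like cells GAB2 was the 1 gene of this list that changed, at 45.3 and 28.0 CPM against 5.85 and 8.32 in the HOPX and CLU glia (log2 fold change 2.48, SE 0.39, adjusted p = 1.27e-05).

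The target and feedback list split between its members in the HOPX and CLU glia against the EOMES cells, with 6 of 12 tested genes higher, 2 lower and a median of 1.15, where 21.9% of all genes tested were higher and 21.0% lower. The Sprouty feedback inhibitor SPRY2 was 195 and 172 CPM against 13.7 and 8.44 (log2 fold change 3.88, SE 0.25, adjusted p = 1.48e-13), SPRY1 had 3.67 (SE 0.51, adjusted p = 8.65e-07) and the transcription factor ETV1 3.59 (SE 0.21, adjusted p = 1.24e-14). The MAP kinase phosphatases DUSP4 and DUSP6 were the 2 that fell, DUSP4 by 3.29 (SE 0.29) and DUSP6 by 2.06 (SE 0.39). Among cells with G2/M transcripts 6 of 12 were higher in the HOPX glia and none lower, where 13.7% of all genes tested were higher. The median was 0.90 beside -0.04. The largest changes were those of ETV4 (3.51, SE 1.26, adjusted p = 0.0377), SPRY1 (3.42) and SPRY2 (1.92). ETV4 was only 2.86 and 5.79 CPM against 0 and 0.801, so its size depends on the fit's prior count.

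In the gliogenic progenitor-like cells against the HOPX and CLU glia 3 of 12 targets were higher and none lower, with a median of 0.35 beside -0.03. Of all genes tested, 10.3% were higher and 12.4% lower. Counted in either direction, 22.7% of all genes were called, which is near the 3 of 12. ETV4 was 24.9 and 18.6 CPM against 1.17 and 0 (log2 fold change 4.61, SE 1.03, adjusted p = 0.00116), which is 2 UMIs in the HOPX and CLU glia, so its size depends on the fit's prior count. DUSP6 was 68.7 and 49.7 CPM against 6.44 and 10.7 (2.90, SE 0.44, adjusted p = 7.85e-06), and ETV1 was 412 and 317 against 260 and 244 (0.50, SE 0.17, adjusted p = 0.0308). In the oligodendrocyte precursor-like cells SPRY4 was higher than in the gliogenic progenitor-like cells, at 57.0 and 106 CPM against 2.92 and 0, and ETV1 was lower (-1.32, SE 0.25, adjusted p = 0.000493).

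In the deep-layer neuron-like cells, 4 of 12 targets were higher than in the newborn neuron-like cells and 1 was lower, where 12.7% of all genes tested were higher and 9.99% lower. SPRY1 was 24.6 and 22.5 CPM against 0.285 and 0.322, and ETV1 80.6 and 141 against 4.41 and 6.77. The coreceptors SDC2 (3.59, SE 0.55, adjusted p = 1.07e-05) and ANOS1 (2.27, SE 0.41, adjusted p = 0.000106) were higher too, in the class whose glial marker sums were raised as given above. SDC2 was 15.7 and 56.2 CPM there, and L1CAM was lower (-1.40, SE 0.23, adjusted p = 2.33e-05). In the medial-eminence interneuron-like cells, where no receptor was called, 3 of 12 targets were higher than in the newborn class and 1 was lower. ETV1 had 3.25 (SE 0.34, adjusted p = 9.23e-09) and SPRY2 2.86 (SE 0.45, adjusted p = 9.81e-06). Of all genes tested in that comparison, 9.36% were higher and 10.2% lower. In the mural and fibroblast-like cells SPRY1 was 157 and 81.9 CPM against 4.03 and 22.6 in the endothelial-like cells (2.83, SE 0.59, adjusted p = 0.00224), and SDC2 was higher by 1.98 (SE 0.40, adjusted p = 0.00174). Of the 10 coreceptor genes tested there, 1 was higher and 2 were lower, L1CAM (-2.78, SE 0.79, adjusted p = 0.0282) and CDH2 (-2.06, SE 0.27, adjusted p = 7.71e-06). Of all genes tested in that comparison, 3.11% were higher and 3.81% lower.

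Profiles across classes were compared by Pearson's r of log2(CPM + 10) over the mean levels of 13 classes, among genes with at least 50 CPM in 1 class. The classes come from the same 2 libraries and differ in depth, so these values are a description. FGFR2 and FGFR3 had r = 0.842, with 0.824 within library A and 0.642 within library B. FGFR1 and FGFR2 had 0.660, with 0.680 and 0.571, and FGFR1 and FGFR3 had 0.665, with 0.720 and 0.347. The genes nearest to FGFR2 were AZIN1 (0.967), the Wnt receptor FZD8 (0.965), PTGFRN (0.964), MMD (0.960) and the integrin ITGA2 (0.958). Nearest to FGFR3 were LOC123387754 (0.960), GPAM (0.956), SLC9A3R1 (0.951), CROT (0.950) and the growth factor PTN (0.948), and nearest to FGFR1 were ERP29 (0.952), ATP2B4 (0.939), STXBP3 (0.931), DECR1 (0.927) and CNKSR3 (0.925). All of these except ERP29, which peaked in the microglia-like cells, had their highest mean level in the HOPX and CLU glia. Within library A and within library B, ERP29 had r of 0.828 and 0.728 with FGFR1, below the 0.915 and 0.906 of STXBP3.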

How the data were processed

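The authors deposited 1 sparse matrix of UMI counts per gene and cell, not normalized. They used Cell Ranger, per the submitters' processing notes; neither its version nor a build is given in the sources used here. Cells under 500 genes or above 10% mitochondrial UMIs were removed; each remaining cell held at least 1501 UMIs. UMIs were summed per class and library, with Python 3.11.15, scanpy 1.11.5, numpy 2.4.6 and scipy 1.17.1. The receptors, gates, gene lists and comparisons were chosen with earlier results of these data known.

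The tests used edgeR 4.0.16 (R 4.3.3): 1 quasi-likelihood fit over the 13 classes with at least 20 cells in each library, TMM scaling, filterByExpr, library as a block, and Benjamini-Hochberg adjustment over all genes tested, at 0.05. The script was tested on simulated data. The SE is the absolute log2 fold change divided by the square root of F. Of 10 comparisons, 7 were run in this fit and 2 with a minimum of 15 cells, added after the cell counts were seen. Poisson and Clopper-Pearson intervals, at 95%, cover counting error only. The share of cells at 1500 UMIs is the exact expectation, adopted after 1 random draw proved noisy; the thinned fits use 1 seeded draw. Cells passing several gates, which include doublets, were left out. Alternatives were RLE scaling, DESeq2 1.42.0, no filter on low counts, no block, the 2 classes alone, gates raised by 1 UMI, thinning, removal of cells with a Scrublet score above 0.2, several-gate cells kept, no cell filter and each library alone. Not requiring CLU and leaving out cells with HOPX, CLU, AQP4 or TNC were added after seeing the data. Named pathway genes were drawn from the up to 3 per list and comparison past the threshold with the largest absolute log2 fold change. Not all genes that met this rule are named, and DUSP4, DUSP6 and FGFR4 were named outside it. For each receptor the 5 genes of highest correlation outside the gates are named.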

Additional observations from a re-analysis of the deposited data

How the results depend on the processing

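Of 213 receptor results under the alternatives with a test, 194 kept their direction and their side of the threshold. For the oligodendrocyte precursor-like and the mural and fibroblast-like cells most alternatives were not run, as too few cells met the planned minimum, and the comparison of the CRYAB glia was not run. Thinning to 1500 UMIs cut the genes called to 1320 for gliogenic progenitor-like against HOPX and CLU glia, 1050 for HOPX glia with G2/M transcripts, 173 for LIFR glia, 2866 for HOPX and CLU glia against EOMES cells, 1244 for the G2/M classes and 1112 for deep-layer against newborn neuron-like cells. Keeping cells of several gates raised the LIFR count to 984. Calls lost with DESeq2 were FGFR2 in HOPX glia with G2/M transcripts against HOPX and CLU glia (-0.65) and in LIFR glia (-0.91), and FGFR3 between the G2/M classes (1.78). Thinning lost FGFR1 (-0.55) in HOPX glia with G2/M transcripts, FGFR2 in LIFR glia (-1.13) and FGFR2 (1.14) and FGFR1 (0.69) in deep-layer neuron-like cells. That FGFR1 call was also lost with no filter (0.78), with 2 classes alone (0.97) and without doublet-scored cells (0.69). Calls gained were FGFR3 in gliogenic progenitor-like cells with 2 classes alone (-1.08), FGFR1 in LIFR glia with several-gate cells (-1.10), and, in medial-eminence interneuron-like cells, FGFR1 with no filter (-0.80), without doublet-scored cells (-1.10) and without glial transcripts (-1.14), and FGFR2 with raised gates (0.63). In those interneuron-like cells FGFR2 reversed after thinning (-0.03) and without glial transcripts (-0.12), and FGFR3 without glial transcripts (-0.03). The cause was not tested.

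The highest class over the median class was 2.48 for FGFR1 and 5.49 for FGFR2 after thinning. The highest FGFR1 class was then the CRYAB glia, at a mean of 135 CPM beside 128 in the HOPX and CLU glia. With raised gates the ratio was 4.59 for FGFR2 and 9.72 for FGFR3. It was 2.05, 3.96 and 5.76 for FGFR1, FGFR2 and FGFR3 with several-gate cells, and 5.65 for FGFR2 without doublet-scored cells. The log2 ratios in single libraries, given for FGFR1, FGFR2 and FGFR3 in that order, ran from -0.81 to -0.22, -0.62 to -0.49 and -1.60 to -0.46 in HOPX glia with G2/M transcripts against HOPX and CLU glia. They ran from -1.22 to -0.56, -1.40 to -0.54 and -1.28 to 0.10 in LIFR glia, from 2.07 to 2.76, 3.33 to 3.66 and 3.10 to 3.80 in HOPX and CLU glia against EOMES cells, and from 1.59 to 1.94, 1.18 to 1.53 and 0.92 to 2.44 between the G2/M classes. For FGFR2 they ran from -3.28 to -2.01 in gliogenic progenitor-like cells and from -2.24 to -0.54 in oligodendrocyte precursor-like cells. In deep-layer neuron-like cells they ran from 0.57 to 1.82 for FGFR1 and 1.47 to 1.78 for FGFR2, and FGFR3 in medial-eminence interneuron-like cells had 5.53 in library B alone.

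The library served as the replicate block because suffixes carry no replicate number. With no replicate block, no receptor gained or lost its call; FGFR2 in HOPX and CLU glia against EOMES cells was 3.40 (adjusted p = 7.95e-14), with 4573 genes called. Of 240 mean class levels under the alternatives without a test, 53 moved by more than the SD of the 2 libraries. Among them were FGFR2 in the oligodendrocyte precursor-like cells, from 16.7 to 4.77 CPM with raised gates, which left 18 and 7 cells. Another was FGFR3 in HOPX glia with G2/M transcripts, from 15.3 to 2.18 in the thinned draw. FGFR3 had under 50 UMIs per library in every class, and both that number and the 2 libraries limit precision.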
